A study of Mus musculus with 2 samples.

Results

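Rasgrp2, Rasgrp3, Rap1a, Rap1b, Rasip1 and Rapgef1 encode the small GTPases RAP1A and RAP1B, 3 of their activators and an effector, and were followed across the endothelial sub-clusters and the other cell types of the neonatal mouse retina. They are 6 of the 32285 genes counted in the files, matched by symbol. Rasgrp2 was chosen by its measured difference in CPM (counts per 1000000 UMIs) between the endothelial cells of both libraries, and the other 5 for their place in the same pathway with that difference known, so the endothelial ratios below are descriptions. The study compared endothelial-specific Alk1 knockout retinas with controls at postnatal day 6. The Alk1 ECKO library came from Alk1 f/f mice that carried Cdh5 CreERT2, a tamoxifen-inducible Cre recombinase driven by the promoter of the VE-cadherin gene, and the control library from Alk1 f/f mice without Cre. Both libraries therefore carry the floxed Alk1 alleles (gene symbol Acvrl1), which encode an endothelial receptor for bone morphogenetic proteins, and they differ in the presence of CreERT2 as well. Retinal cells were enriched with beads against CD31, an endothelial surface protein, and profiled with a 3′ single-cell kit that counts unique molecular identifiers (UMIs), each standing for 1 captured transcript. There was 1 library per genotype, and the number of animals in each and the tamoxifen schedule are not given in the sources. No test between genotypes was possible, so differences are given with intervals that cover counting error only and not the spread between animals, and genotype cannot be told apart from library.

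RAP1A and RAP1B are molecular switches that are active when bound to GTP. Guanine nucleotide exchange factors load them with GTP: RASGRP2 (CalDAG-GEFI) and RASGRP3 respond to calcium or diacylglycerol, and RAPGEF1 is brought to receptors and adhesions by CRK adaptors. In endothelium active RAP1 strengthens VE-cadherin junctions and integrin adhesion, and RASIP1 is an effector through which it helps vessel lumens form. In platelets RASGRP2 is the main route from calcium to integrin activation. RASGRP3 can also load RAS proteins.

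The members lie on 6 chromosomes of the mouse (build mm10, GENCODE vM21). Rasgrp2 (ENSMUSG00000032946) spans chr19:6399340-6415216 on the plus strand and Rasgrp3 (ENSMUSG00000071042) spans chr17:75435896-75529054 on the plus strand. Rap1a (ENSMUSG00000068798) spans chr3:105727267-105801336 and Rap1b (ENSMUSG00000052681) chr10:117813871-117846035, both on the minus strand. Rasip1 (ENSMUSG00000044562) spans chr7:45627488-45639093 and Rapgef1 (ENSMUSG00000039844) chr2:29619720-29740978, both on the plus strand. The antisense gene Gm14965 overlaps the 3′ part of Rasgrp2 and had 0 UMIs in the endothelial cells of both libraries. Rasip1 overlaps the antisense gene A030001D20Rik, which was counted separately at 7.20 CPM in Alk1 ECKO and 7.63 CPM in control endothelial cells.

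RefSeq gives a start-site window for 5 of the 6 members (GRCm38.p6). The parts of such windows that lie before an annotated exon are shown for the calcium- and diacylglycerol-responsive exchange factors, because these paralogs have similar inputs but different endothelial ratios between the libraries. Both are read 5′ to 3′ on the plus strand, Rasgrp2 at chr19:6399625-6399745 and Rasgrp3 at chr17:75435655-75435895. The Rasgrp3 stretch ends where the gene starts, and the Rasgrp2 stretch lies in the first intron of the longer transcripts, just before an exon at which another transcript starts. Capitals mark GGAA or TTCC (the core that ETS factors recognise), CACCC or GGGTG (recognised by KLF factors) and CAGAC or GTCTG (a SMAD-binding core), searched on both strands without overlaps.
Rasgrp2: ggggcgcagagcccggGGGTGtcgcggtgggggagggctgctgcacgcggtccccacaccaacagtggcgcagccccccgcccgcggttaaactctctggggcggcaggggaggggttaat
Rasgrp3: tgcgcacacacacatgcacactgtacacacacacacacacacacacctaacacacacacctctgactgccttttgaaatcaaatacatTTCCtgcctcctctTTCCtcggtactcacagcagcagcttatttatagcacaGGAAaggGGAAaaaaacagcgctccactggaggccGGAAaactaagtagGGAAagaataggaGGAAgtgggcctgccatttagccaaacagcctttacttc
The 121 bases of Rasgrp2 hold 1 CACCC match and no GGAA or CAGAC match, while the 241 bases of Rasgrp3 hold 7 GGAA matches and neither of the other motifs. Among 32851 mouse start-site windows trimmed to 121 bases, 74.3% hold GGAA, 29.2% CACCC and 23.7% CAGAC, and at 241 bases the shares are 92.8%, 50.8% and 41.0%. A second Rasgrp3 stretch, 198 bases at chr17:75465288-75465485, holds 1 GGAA match and neither of the other motifs, where 89.0% of windows at that length hold GGAA. The count of GGAA thus differs between the Rasgrp3 stretches themselves. These are letter matches, and a 3′ library does not show which start site was used.

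The Alk1 ECKO files hold 5308 barcodes with 62728605 UMIs and the control files 8739 with 54800465, and 20 barcodes occur in both. After filters 1126 Alk1 ECKO and 305 control cells were classed as endothelial, with 36966537 UMIs in all and a median of 18890 per cell in Alk1 ECKO, and 10358238 UMIs and a median of 19617 in control. Of 20 endothelial markers, 20 in Alk1 ECKO and 19 in control were at over 5 times their level in the other cells. Acvrl1 itself was at 119 CPM in Alk1 ECKO and 115 CPM in control endothelial cells. The kit tags transcript ends and the sources do not name the deleted exons, so this value does not check the deletion. Over all 12470 genes measured in endothelial cells (at least 30 UMIs over both libraries) the median log2 ratio of Alk1 ECKO over control was -0.21, and ratios relative to this median are added where they matter.

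Rasgrp2 transcripts were several times as frequent in Alk1 ECKO as in control endothelial cells, while the other members differed by less than 1.5-fold. Rasgrp2 had 4842 UMIs or 131 CPM (95% exact Poisson interval 127 to 135) in Alk1 ECKO endothelial cells, against 267 UMIs or 25.8 CPM (22.8 to 29.1) in control endothelial cells. The log2 ratio was 2.35 (exact conditional binomial interval 2.17 to 2.53), a 5.08-fold difference, and it ranked 4 among the 6387 genes with at least 20 CPM in either library. Among all measured genes 5.89% were higher by 1.5-fold or more in Alk1 ECKO and 20.6% were lower, beside 1 of the 6 members higher and 0 lower. Relative to the median of all genes these shares are 10.7% higher and 10.5% lower, and again 1 member was higher and 0 were lower. Since the members were chosen with this contrast known, nothing is read from these counts.

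The GTPases themselves were abundant and close between the libraries. Rap1a was at 232 CPM in Alk1 ECKO and 184 CPM in control endothelial cells, a log2 ratio of 0.33 (0.26 to 0.41). Rap1b, the other RAP1 isoform, was at 238 CPM in Alk1 ECKO and 222 CPM in control, a log2 ratio of 0.10 (0.03 to 0.16). Relative to the median of all genes the log2 ratios were 0.55 for Rap1a and 0.31 for Rap1b.

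Over all endothelial cells, neither of the other exchange factors shared the difference seen for Rasgrp2. Rasgrp3 was at 122 CPM in Alk1 ECKO and 142 CPM in control endothelial cells, a log2 ratio of -0.22 (-0.31 to -0.13) and -0.01 relative to the median of all genes. Rapgef1 was at 34.6 CPM in Alk1 ECKO and 40.8 CPM in control, a log2 ratio of -0.24 (-0.40 to -0.08) that changed sign to 0.21 when each cell was thinned to 5000 UMIs. The effector gene Rasip1 was at 229 CPM in Alk1 ECKO and 290 CPM in control, a log2 ratio of -0.34 (-0.40 to -0.28) and -0.13 relative to the median. Levels are not compared between genes here, because 3′ counts also depend on how well each transcript end is captured.

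**Figure D1:**
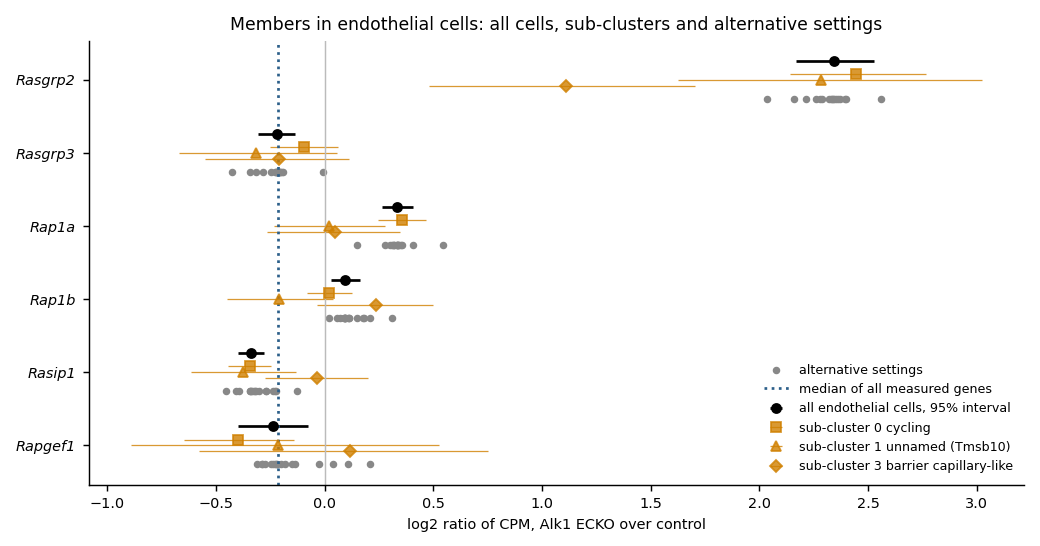
The log2 ratio of CPM in Alk1 ECKO over control endothelial cells is plotted for each member, over all cells with a 95% counting interval (black), within the 3 sub-clusters present in both libraries (orange) and under the alternative settings (grey), with the median of all measured genes dotted. Every Rasgrp2 point lies at 1.11 or above, and the black points of the other members lie between -0.34 and 0.33.

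The balance of the calcium- and diacylglycerol-responsive exchange factors differed between the libraries. There were 1.08 Rasgrp2 UMIs per Rasgrp3 UMI (1.03 to 1.12) in Alk1 ECKO endothelial cells, against 0.182 (0.159 to 0.207) in control endothelial cells. This ratio is within each library and needs no scaling by depth. Its parts have different capture rates, so only its difference between the libraries is read.

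Rasgrp2 was also found in a larger share of Alk1 ECKO endothelial cells. With each cell thinned to 5000 UMIs, 39.4% of 895 Alk1 ECKO cells (Clopper-Pearson 36.2 to 42.7) held a Rasgrp2 UMI, against 11.1% of 287 control cells (7.75 to 15.4), and 231 and 18 shallower cells were left out. Unthinned, the shares were 66.8% in Alk1 ECKO and 39.7% in control. In rods, which should lack the gene, 0 of 35 Alk1 ECKO cells (3 counts of the total allow a share of cells with a UMI of up to 8.57%) and 1 of 549 control cells held one after the same thinning, and in Müller glia or late progenitors 1.98% in Alk1 ECKO and 1.02% in control. Median depths before thinning were 2261 UMIs in Alk1 ECKO rods and 2742 in control rods. Both endothelial shares thus lay above the Müller glia or late progenitor share in their own library.

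Rasgrp3 was found in similar shares of both, 43.5% in Alk1 ECKO (40.2 to 46.8) and 46.3% in control (40.5 to 52.3). Cells with UMIs of both exchange factors made up 16.0% (13.6 to 18.6) of thinned Alk1 ECKO endothelial cells and 5.57% (3.22 to 8.90) of control cells. Cells with Rasgrp2 alone made up 23.5% in Alk1 ECKO and 5.57% in control, and cells with Rasgrp3 alone 27.5% in Alk1 ECKO and 40.8% in control. Among endothelial cells with any Rasgrp2 UMI the mean was 6.44 UMIs in Alk1 ECKO and 2.21 in control, and the highest single cell held 47 in Alk1 ECKO and 19 in control. The tenth of cells with the most Rasgrp2 UMIs held 45.0% of them in Alk1 ECKO (113 cells) and 57.7% in control (31 cells). These per-cell counts are unthinned, so they also follow the depth of each cell.

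Endothelial cells fell into 8 sub-clusters, and those named below carry a name only where the marker lists allowed it. Sub-cluster 0 was led by cell-cycle genes, sub-cluster 3 by Slc38a5 and Mfsd2a (barrier capillary-like), sub-cluster 4 by Mgp and MHC class II genes, sub-cluster 5 by Angpt2, Kcne3 and Esm1 (tip-like) and sub-cluster 6 by Cxcl12 and Gja4 (arterial-like). Sub-clusters 1 (led by Tmsb10), 2 (led by Apod) and 7 (led by Six3os1 and Aqp1) stayed unnamed. Most of the control cells, 160 of 305, were barrier capillary-like, against 28 of the 1126 Alk1 ECKO cells, and sub-cluster 4, with a median of 2639.5 UMIs per cell and the microglial genes C1qa and C1qb among its leading genes, held no control cell. The names were rebuilt here from markers. The sub-clusters were formed with the 3000 most variable genes of these cells, and the members were not held out of that choice.

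Within the Alk1 ECKO library Rasgrp2 was highest in the tip-like sub-cluster at 185 CPM (173 to 198). The next were unnamed sub-cluster 7 at 156 CPM, the MHC class II sub-cluster at 155 CPM and unnamed sub-clusters 1 and 2 at 132 and 130 CPM, and each interval in this series overlapped that of its neighbour. The cycling sub-cluster at 116 CPM (111 to 122) and the arterial-like one at 112 CPM (82.0 to 148) followed with overlapping intervals. The barrier capillary-like sub-cluster came last at 54.6 CPM (36.9 to 78.0, 30 UMIs in 28 cells), with an interval below that of its neighbour. The highest level was thus 3.39 times the lowest.

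In the control sub-clusters of at least 20 cells the levels were low and close to each other. Rasgrp2 was at 27.1 CPM (16.3 to 42.4) in sub-cluster 1, at 25.3 CPM (20.8 to 30.4) in the barrier capillary-like sub-cluster and at 21.4 CPM (17.2 to 26.3) in the cycling one, all with overlapping intervals. The smaller control sub-clusters spread more widely. The 16 control cells of sub-cluster 7 were at 13.3 CPM (4.30 to 30.9), against 156 CPM in its 21 Alk1 ECKO cells, and the 15 arterial-like control cells at 33.2 CPM (14.3 to 65.3), against 112 CPM in 26 Alk1 ECKO cells. The 2 tip-like control cells held 18 Rasgrp2 UMIs (176 CPM, 104 to 279), beside 185 CPM in the 96 Alk1 ECKO tip-like cells. At sub-cluster resolution 1.0 the sub-cluster led by Esm1 and Angpt2 again held 2 control cells with 18 Rasgrp2 UMIs. Another one took the tip-like name from Kcne3, Plaur and Adm. It was at 130 CPM in 109 Alk1 ECKO cells and 23.8 CPM in 27 control cells, a log2 ratio of 2.44 (1.72 to 3.27). That sub-cluster shares leading genes such as Odc1, Lgals1 and Mif with unnamed sub-cluster 1. Its cells may largely be those of sub-cluster 1 given above, which was not checked. The level of control cells led by Esm1 and Angpt2 thus rests on 2 cells. The 6 control cells of the Apod-led sub-cluster were at 54.5 CPM (29.8 to 91.4), against 130 CPM in the 272 Alk1 ECKO cells.

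The 3 sub-clusters with at least 20 cells in both libraries each had more Rasgrp2 in Alk1 ECKO. The log2 ratio was 2.44 (2.14 to 2.76) in the cycling sub-cluster, 2.28 (1.63 to 3.02) in sub-cluster 1 and 1.11 (0.48 to 1.70) in the barrier capillary-like one. The interval of the barrier capillary-like ratio lies below that of the cycling one. With the sub-clusters of both libraries weighted to the same makeup, the log2 ratio was 2.04, beside 2.35 over all cells as they are.

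The balance against Rasgrp3 also had its lowest value in barrier capillary-like cells, among sub-clusters of at least 20 cells, but intervals overlapped. In Alk1 ECKO the overlap was with arterial-like cells at 0.635 (0.431 to 0.928). In control it was with the cycling sub-cluster and sub-cluster 1. Barrier capillary-like cells had 0.353 Rasgrp2 UMIs per Rasgrp3 UMI (0.225 to 0.541) in Alk1 ECKO and 0.141 (0.115 to 0.172) in control, and cycling cells 1.19 (1.11 to 1.28) in Alk1 ECKO and 0.205 (0.162 to 0.257) in control. In Alk1 ECKO sub-cluster 1 reached 1.51 (1.34 to 1.71), against 0.250 (0.143 to 0.418) in control.

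**Figure D2:**
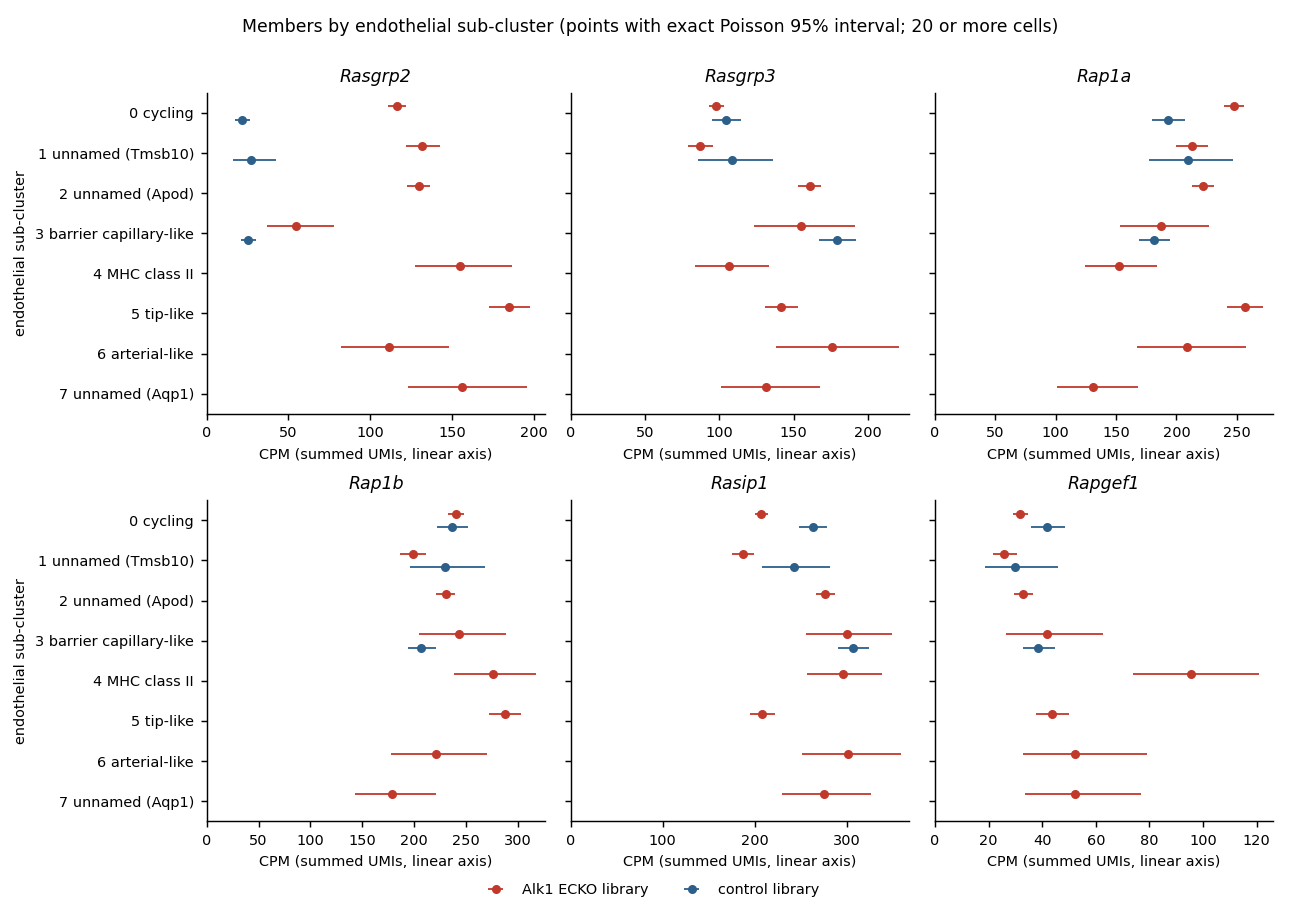
CPM of each member by endothelial sub-cluster is shown on a linear axis with exact Poisson 95% intervals, Alk1 ECKO in red above control in blue, where a sub-cluster has at least 20 cells in the library. Rasgrp2 runs from 54.6 to 185 CPM in Alk1 ECKO and from 21.4 to 27.1 CPM in control, and no other member shows a gap of that size between the libraries.

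The other members had their own orders across sub-clusters. Rasgrp3 was highest in the arterial-like sub-cluster of Alk1 ECKO at 176 CPM, with an interval overlapping that of sub-cluster 2 at 161 CPM. It was lowest in sub-cluster 1 at 87.3 CPM, overlapping the cycling one. In control it was highest in the barrier capillary-like sub-cluster at 179 CPM, above sub-cluster 1 at 109 CPM and the cycling one at 104 CPM with no overlap of intervals. At sub-cluster resolution 1.0 a cycling sub-cluster had a Rasgrp3 log2 ratio of 0.92 (0.37 to 1.52), from 323 UMIs in Alk1 ECKO and 29 in control. The other sub-clusters compared at that resolution had Rasgrp3 ratios below 0. Rasip1 in Alk1 ECKO was at 302 CPM in the arterial-like, 300.4 CPM in the barrier capillary-like and 296 CPM in the MHC class II sub-cluster, with overlapping intervals. In control it was highest in the barrier capillary-like sub-cluster at 307 CPM, among those of at least 20 cells. Its lowest level was 187 CPM, in sub-cluster 1 of Alk1 ECKO. Within the sub-clusters shared by both libraries its log2 ratio was -0.34 (-0.44 to -0.24) in the cycling one, -0.38 (-0.61 to -0.13) in sub-cluster 1 and -0.03 (-0.27 to 0.20) in the barrier capillary-like one. By CPM Rasip1 was thus lower in Alk1 ECKO in the cycling sub-cluster and sub-cluster 1, and close to even in barrier capillary-like cells. The median ratio of all genes within each sub-cluster is not given, so these ratios are not read relative to it.

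Rap1a was highest in the tip-like sub-cluster of Alk1 ECKO at 257 CPM, with an interval overlapping that of the cycling one at 247.5 CPM. It was lowest in unnamed sub-cluster 7 at 131 CPM, overlapping the MHC class II one at 152 CPM. Its log2 ratio was 0.36 (0.25 to 0.47) in the cycling sub-cluster and close to 0 in sub-cluster 1 and in the barrier capillary-like one, at 0.02 (-0.23 to 0.28) and 0.05 (-0.26 to 0.34). Rap1b ranged from 179 to 288 CPM across the sub-clusters of Alk1 ECKO and from 207 to 237 CPM across those of control. Rapgef1 stood at 95.3 CPM in the MHC class II sub-cluster of Alk1 ECKO and at 25.8 to 52.2 CPM in its other sub-clusters.

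Rasgrp2 had its highest level outside the endothelium. Mural cells, the pericytes and smooth muscle cells that wrap vessels, were at 351 CPM (328 to 376, 146 cells) in Alk1 ECKO, and the 11 control mural cells were at 443 CPM (341 to 566). The 17 lymphocytes of Alk1 ECKO were at 312 CPM (219 to 429), and its 33 erythroid cells at 158 CPM (75.9 to 291, 10 UMIs), although the erythroid cells also held endothelial markers at 7331 CPM. Amacrine cells were at 40.5 CPM (14.9 to 88.2, 6 UMIs) in Alk1 ECKO and 15.8 CPM (9.64 to 24.4) in control, and microglia or macrophages at 18.7 CPM in Alk1 ECKO and 17.1 CPM in control. Bipolar cells, Müller glia or late progenitors and rods were at 2.98 to 4.15 CPM in Alk1 ECKO and 0.437 to 1.81 CPM in control.

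Outside the endothelium no class with at least 20 cells in both libraries other than bipolar cells gave a Rasgrp2 ratio whose interval left out 0. The log2 ratio was 0.14 (-0.75 to 1.13) in microglia or macrophages and 1.36 (-0.25 to 2.73) in amacrine cells. In bipolar cells it was 3.25 (0.69 to 6.02), from 4 UMIs in Alk1 ECKO and 3 in control.

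The other members were spread differently over the cell types. Rasgrp3 was highest in endothelial cells (122 CPM in Alk1 ECKO and 142 CPM in control), then in microglia or macrophages (94.6 CPM in Alk1 ECKO and 94.4 CPM in control), then in mural cells (46.7 CPM in Alk1 ECKO), and at or below 1.03 CPM in the neuronal and glial classes of both libraries. Rasip1 was at 229 CPM in Alk1 ECKO and 290 CPM in control endothelial cells, at 0.420 CPM in Alk1 ECKO mural cells and at 2.26 CPM in Alk1 ECKO and 2.62 CPM in control microglia or macrophages. Mural cells thus held Rasgrp2 with almost no Rasip1, and microglia or macrophages held Rasgrp3 with almost no Rasip1.

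Rap1a and Rap1b were found in every class. Among classes of at least 20 cells Rap1b was highest in microglia or macrophages at 415 CPM in Alk1 ECKO and 443 CPM in control, followed in Alk1 ECKO by mural cells at 287 CPM. Among the same classes Rap1a was also highest in microglia or macrophages, at 261 CPM in Alk1 ECKO and 223 CPM in control, while the 17 lymphocytes of Alk1 ECKO were at 370.5 CPM (269 to 497) and the 11 control mural cells at 270.2 CPM (192 to 369). Rapgef1 was low and broad in classes of at least 20 cells, between 14.3 and 40.5 CPM across the classes of Alk1 ECKO and between 8.95 and 40.8 CPM across those of control, and all neighbours in its order overlapped.

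**Figure D3:**
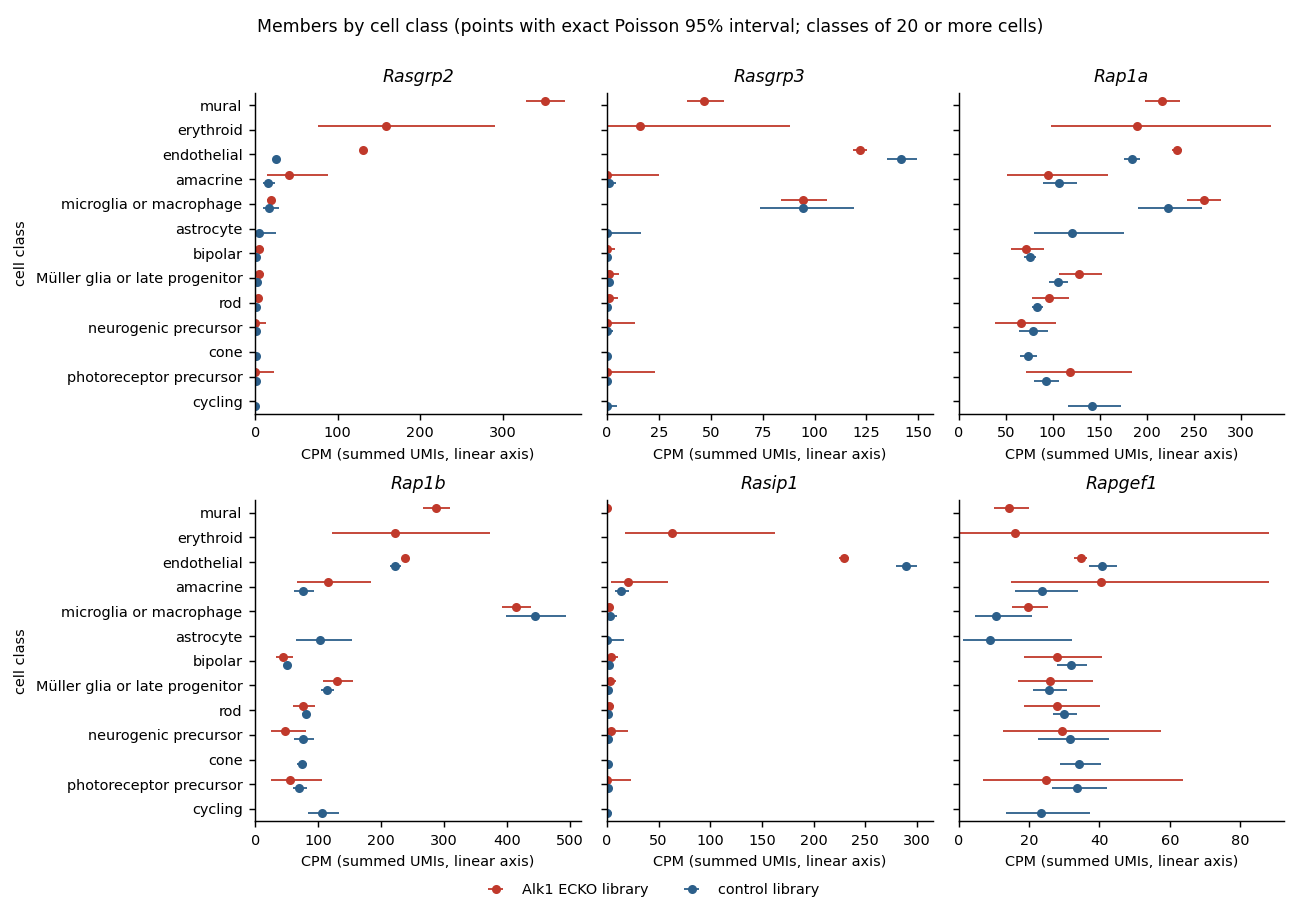
CPM of each member by cell class is shown on a linear axis with exact Poisson 95% intervals, Alk1 ECKO in red above control in blue, for classes of at least 20 cells. Rasgrp2 peaks in Alk1 ECKO mural cells at 351 CPM, Rasgrp3 in endothelial cells and microglia or macrophages, Rasip1 in endothelial cells, and Rap1a and Rap1b appear in all classes.

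Because mural cells hold the most Rasgrp2, their RNA in the endothelial cells was measured. The 14 mural markers summed to 41.7 CPM in Alk1 ECKO endothelial cells with none at 0, against 5.89 CPM in control endothelial cells with 5 at 0 (Pdgfrb, Cspg4, Kcnj8, Des and Cnn1). Mural cells of Alk1 ECKO carried the same markers at 11970 CPM, so mural RNA at the endothelial marker level would bring 1.22 CPM of Rasgrp2 in Alk1 ECKO and 0.143 CPM in control. Across Alk1 ECKO sub-clusters the mural sum ranged from 1.82 CPM in barrier capillary-like cells to 198 CPM in the MHC class II sub-cluster. Without the endothelial cells holding any mural marker UMI (809 Alk1 ECKO and 271 control cells left), the log2 ratio of Rasgrp2 was 2.32. A further endothelial sub-cluster with mural markers among its leading genes, of 92 Alk1 ECKO and 4 control cells, was set aside as possibly mixed, and was at 169 CPM in Alk1 ECKO and 86.6 CPM in control.

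RNA of platelets, which use RASGRP2, was measured in the same way. The 13 platelet and megakaryocyte markers summed to 25.7 CPM in Alk1 ECKO endothelial cells, with 3 at 0. In control they summed to 32.4 CPM, with 7 at 0. Gp1ba and Gp6 were among those at 0 in both, while other platelet genes of the list were detected. A UMI from this list was present in 38.1% of endothelial cells in the Alk1 ECKO library, against 45.9% in the control library. The most abundant of these markers were Itga2b at 9.96 CPM in Alk1 ECKO and 11.3 CPM in control, Nrgn at 7.76 CPM in Alk1 ECKO and 11.4 CPM in control, and Pf4 at 5.76 CPM in Alk1 ECKO and 8.59 CPM in control. Clec1b was at 1.54 CPM in Alk1 ECKO and 0.676 CPM in control, and Gp5 at 0.216 CPM in Alk1 ECKO and 0.290 CPM in control. Without the cells holding a platelet marker UMI (697 Alk1 ECKO and 165 control cells left) the log2 ratio of Rasgrp2 was 2.16. Relative to the median of all genes it was 2.26, beside 2.56 over all endothelial cells. This filter takes 67.6% of the Alk1 ECKO cycling cells but 3.01% of the MHC class II sub-cluster, so the makeup changes too. Filters on mural or erythroid marker UMIs likewise take unequal shares of the sub-clusters.

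Erythroid markers summed to 360.2 CPM in Alk1 ECKO endothelial cells and 223 CPM in control endothelial cells, with 0 of 9 at 0 in both. Scaled from the erythroid class in the same way as for mural cells, this marker level would bring 26.5 CPM of Rasgrp2 in Alk1 ECKO, a value that rests on the 10 Rasgrp2 UMIs of the 33 erythroid cells and on a class that itself held endothelial markers at 7331 CPM. No such value was made for control, which had no erythroid cells. The markers reached 1099 CPM in the tip-like sub-cluster, whose leading genes include Hba-a1, Hba-a2 and Hbb-bs. Without cells holding an erythroid marker UMI (948 Alk1 ECKO and 261 control cells left) the log2 ratio was 2.26. The 12 lymphocyte markers summed to 3.03 CPM in Alk1 ECKO and 1.83 CPM in control endothelial cells.

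The Rasgrp2 difference was present in all 3 depth ranges compared. Among endothelial cells of 5000 to 15000 UMIs the log2 ratio was 1.93 (1.40 to 2.50), among those of 15000 to 40000 UMIs 2.11 (1.76 to 2.47) and in deeper cells 2.51 (2.28 to 2.75). Rapgef1 changed sign over the same strata, with 0.68 (0.09 to 1.32) in the shallowest cells and -0.33 (-0.52 to -0.13) in the deepest.

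The wider pathway was read from 9 lists holding 105 genes, members included and all present in the files, of which 89 were measured in endothelial cells. Rasgrp2 was the 1 gene higher by 1.5-fold (1.12% of the 89, beside 5.89% of all measured genes), and 12 were lower (13.5%, beside 20.6%). The median log2 ratio of these genes was -0.21, the same as for all genes. Relative to that median 9 were higher (10.1%, beside 10.7%) and 3 lower (3.37%, beside 10.5%). The lists were chosen with earlier results of these data known, and these shares describe them without a test.

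Among the 10 measured genes of the RAP1 exchange factor list 1 was higher and 3 were lower. The list takes in the RASGRP family as a whole, and whether each protein loads RAP1 was not tested. Rapgef5, whose protein activates RAP GTPases, was at 271 CPM in Alk1 ECKO and 247 CPM in control, a log2 ratio of 0.13 (0.07 to 0.20). The lower genes were Rapgef4 (EPAC2, activated by cyclic AMP) at 35.8 CPM in Alk1 ECKO and 59.4 CPM in control, Rapgef2 (PDZ-GEF1) at 26.2 CPM in Alk1 ECKO and 44.0 CPM in control, and Rasgrp4 at 1.43 CPM in Alk1 ECKO and 2.99 CPM in control, with log2 ratios of -0.73, -0.75 and -1.06. Thus 6 further exchange factors, Rasgrp3 and Rapgef1 among them, lay within 1.5-fold. Taken relative to the median, Rasgrp2 was again the 1 higher gene, and 1 was lower, Rasgrp4 at -0.85.

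Of 10 measured GTPase-activating proteins, which switch RAP1 off, 0 were higher and 2 lower. Rasa3, which inactivates RAP1 and RAS, was at 26.3 CPM in Alk1 ECKO and 19.2 CPM in control, a log2 ratio of 0.45 (0.23 to 0.68). The lowest were Garnl3 at -0.65 (-1.57 to 0.33), from 34 UMIs in Alk1 ECKO and 15 in control, Sipa1l1 at -0.63 (-0.80 to -0.46) and Sipa1l3 at -0.50 (-0.73 to -0.26). Sipa1, a RAP1-specific GTPase-activating protein, was near even at 157 CPM in Alk1 ECKO and 155 CPM in control. Relative to the median of all genes 1 of the 10, Rasa3 at 0.67, was higher and 0 were lower.

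Of 22 measured effectors and junction partners 0 were higher and 3 lower. Heg1, a transmembrane partner of the junction protein KRIT1, was at 55.2 CPM in Alk1 ECKO and 115 CPM in control, a log2 ratio of -1.06 (-1.16 to -0.95). Tln2, a talin that links integrins to actin, was at 8.90 CPM in Alk1 ECKO and 19.7 CPM in control, a log2 ratio of -1.15 (-1.40 to -0.89), and the polarity gene Pard3 was at -0.72 (-0.90 to -0.53). The highest were Fermt2 (kindlin-2, an integrin activator) at 347 CPM in Alk1 ECKO and 248 CPM in control, with a log2 ratio of 0.49 (0.42 to 0.55), Pdcd10 at 0.26 and Ccm2 at 0.20. Against the median of all genes 1 was higher, Fermt2 at 0.70, and 2 were lower, Tln2 at -0.93 and Heg1 at -0.84.

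The lists upstream of RAP1 were read next. Of 21 measured genes that supply or remove calcium and diacylglycerol, 1 was lower, the calcium release channel gene Itpr2, at 50.1 CPM in Alk1 ECKO and 82.6 CPM in control (log2 ratio -0.72, -0.84 to -0.60). The store-operated calcium channel gene Orai1 was at 116 CPM in Alk1 ECKO and 86.2 CPM in control, a log2 ratio of 0.43 (0.33 to 0.54). Relative to the median of all genes 2 of the 21, Orai1 at 0.65 and the diacylglycerol kinase gene Dgkd at 0.63, were higher and 0 were lower, the opposite direction. Of 7 measured CRK adaptors and docking genes 1 was lower, Cbl, a ubiquitin ligase gene, at -0.65 (-0.77 to -0.53), and 0 were past 1.5-fold relative to the median.

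The RAP GTPase list, of 6 measured genes, held 1 lower gene, Rap1gds1, which encodes a binding partner of RAP and other small GTPases, at -0.66 (-0.79 to -0.52). Rap2a was its highest, at 59.8 CPM in Alk1 ECKO and 46.0 CPM in control, a log2 ratio of 0.38 (0.23 to 0.53). Relative to the median Rap2a was the 1 gene higher, at 0.59, and 0 were lower. Of 8 measured RAS GTPases 0 were past 1.5-fold, although Rala, Rras and Hras had log2 ratios of 0.52, 0.52 and 0.41, and 3 of the 8 were past 1.5-fold relative to the median of all genes. Of 6 measured RAS exchange factors and GTPase-activating proteins 1 was lower, Sos1, an exchange factor for RAS, at -0.59 (-0.72 to -0.45), and 0 were past 1.5-fold relative to the median.

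**Figure D4:**
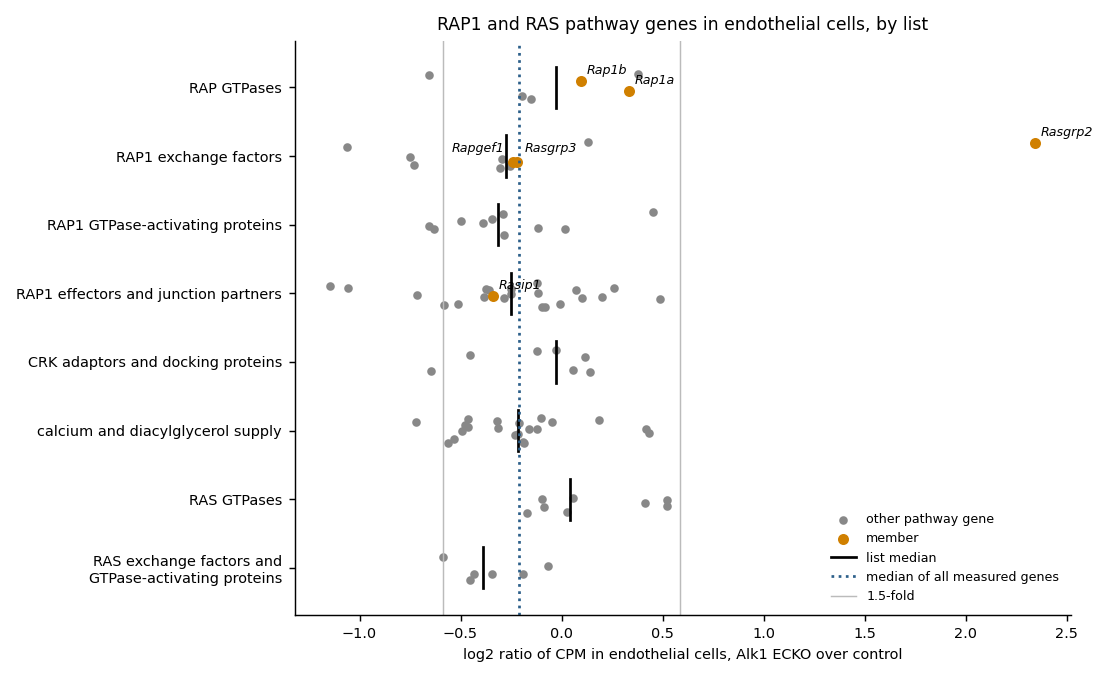
Each point is the log2 ratio of CPM in Alk1 ECKO over control endothelial cells for 1 measured gene of the pathway lists, with members in orange, list medians as black bars, the median of all measured genes (-0.21) dotted and the 1.5-fold lines in grey. Rasgrp2 at 2.35 stands alone to the right of the upper 1.5-fold line, and 12 genes lie left of the lower one.

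The genes whose profile was most like that of Rasgrp2 were sought over 11 profiles, 8 Alk1 ECKO and 3 control sub-clusters of at least 20 cells, among 8093 genes with at least 20 CPM in 1 or more. On log2(CPM + 10) the highest Pearson correlations were those of Ptp4a3 (0.956), Atp6v0e (0.926), Cav2 (0.925), Myl12b (0.914) and Gabarapl2 (0.912). The sub-clusters of 1 library share its genotype, though not their depth per cell, so these values largely follow the gap between the libraries and are a description. Over all endothelial cells the log2 ratios of these genes were 1.21 for Ptp4a3, 0.59 for Atp6v0e, 1.06 for Cav2, 0.78 for Myl12b and 0.56 for Gabarapl2. All 5 had their lowest Alk1 ECKO level in barrier capillary-like cells, as Rasgrp2 did, although Gabarapl2 was at 175 CPM there and 176 CPM in arterial-like cells. The other members had correlations of -0.30 (Rasip1), -0.06 (Rasgrp3), 0.03 (Rap1a), 0.13 (Rap1b) and 0.29 (Rapgef1).

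**Figure D5:**
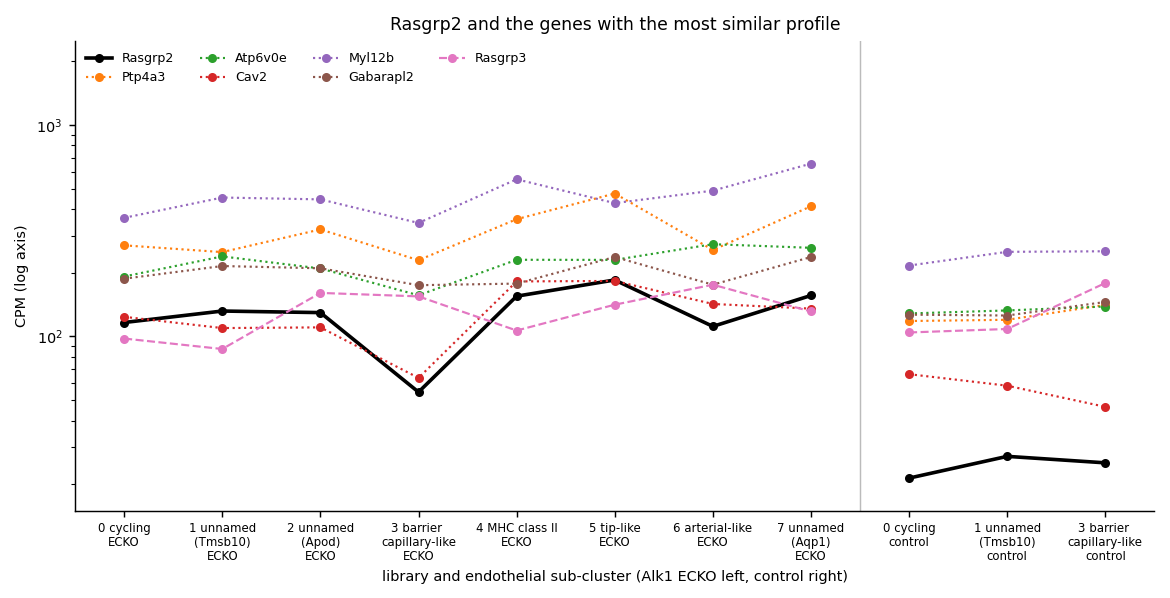
CPM on a log axis is plotted over the 8 Alk1 ECKO sub-clusters (left) and the 3 control sub-clusters (right) for Rasgrp2, the 5 genes with the most similar profile and Rasgrp3. Rasgrp2 and the 5 genes are lower in the control profiles, except that Cav2 in barrier capillary-like cells of Alk1 ECKO is near its control levels, while Rasgrp3 ranges from 87.3 to 179 CPM with no such gap.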

How the data were processed

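CD31-enriched retinal cells of 1 Alk1 ECKO and 1 control library were measured, per the labels' protocols, with the v3.1 chemistry of the 10x Genomics 3′ kit. The deposited values are raw UMI counts of genes in barcodes, made by the authors with Cell Ranger (5.0.1 per the file headers, 6.1.1 per the submitters' processing notes, which also name FastQC 0.11.9 and build mm10). Whether intronic reads were counted is not given in the sources used here.

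Barcodes needed 1000 UMIs, 500 genes and at most 10% mitochondrial UMIs, which left 4237 Alk1 ECKO and 7909 control barcodes. Scrublet's automatic call marked 1 and 0 doublets and had not worked, so the highest scores were removed at 0.8% per 1000 cells, 143 in Alk1 ECKO and 465 in control. No batch correction was applied, and the cells of both libraries were clustered in 1 run in scanpy 1.11.5 (3000 variable genes, 30 components, 15 neighbours from scikit-learn 1.9.0, leidenalg 0.10.2, resolution 1.0, endothelial sub-clusters at 0.6). Clusters took a name from at least 3 markers among their top 20 genes. After doublet removal, barcodes under 1% mitochondrial UMIs (1459 Alk1 ECKO and 324 control) were left out before clustering. This left 2635 Alk1 ECKO and 7120 control cells. Clusters with a median doublet score over 0.12 were set aside. So were clusters with at least 2 markers of another class among their top 10 genes and more of these than of their own. The tip-like sub-cluster, with 3 erythroid markers and 5 of its own there, was kept. At sub-cluster resolution 1.0, sub-clusters flagged by this rule were kept. The rules for naming and for leaving out clusters were chosen with the clusters in view.

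UMIs were summed per library and class and divided by all gene UMIs of that class (CPM). Intervals at 95% from scipy 1.17.1 are exact and cover counting error only. The interval code was tested on simulated data. A difference was counted at 1.5-fold in genes with 30 UMIs over both libraries, and a level needs 20 cells. The genes named are the 6 members, the 3 highest and 3 lowest measured genes of each list or fewer, the 5 most similar profiles and the 5 most abundant platelet markers. Members, lists and markers were chosen with earlier results of these data known. The alternatives tried are given in the closing section.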

Additional observations from a re-analysis of the deposited data

Results flagged for a closer look

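A signal for Rasgrp2 was also present in barcodes outside the comparisons. Barcodes under 1% mitochondrial UMIs were left out before clustering. Among low-mitochondrial barcodes, 1188 of Alk1 ECKO, with a median of 1877 UMIs, matched endothelial markers best, against 1 of control. Rasgrp2 was at 150.8 CPM (138 to 165) in these Alk1 ECKO barcodes, beside 131 CPM in the analysed Alk1 ECKO endothelial cells and 25.8 CPM in the control ones. The other members were lower there than in the analysed Alk1 ECKO cells, with Rasgrp3 at 11.1 CPM (7.71 to 15.4), Rasip1 at 107 CPM, Rapgef1 at 13.6 CPM, Rap1a at 202 CPM and Rap1b at 221 CPM. These barcodes held endothelial markers at 8435 CPM, erythroid markers at 2533 CPM, mural markers at 564 CPM and platelet markers at 37.6 CPM. The part of these other RNAs in the Rasgrp2 level was not tested, and with 1 control barcode no comparison between the libraries was possible.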

How the results depend on the processing

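No paired analysis was possible because each genotype had 1 library, and for the same reason no replicate could be left out. Over 17 alternatives the log2 ratio of Rasgrp2 ranged from 2.04 to 2.56. It left its interval in 3 of them, at 2.16 without cells holding a platelet marker UMI, 2.56 relative to the median of all genes and 2.04 with sub-clusters weighted alike. Rapgef1 changed sign in 3 alternatives, to 0.039 without cells holding a platelet marker UMI, 0.11 as the mean of per-cell CPM and 0.21 with cells thinned to 5000 UMIs, and the cause was not tested. No other member changed sign. The alternatives on mural markers, erythroid markers and the Apod-led sub-cluster were chosen after seeing the data. The count of pathway genes higher by 1.5-fold, 1 as reported, was 5 without cycling sub-clusters, 3 with the low-mitochondrial barcodes counted, 4 without platelet-marker cells, 8 by mean per-cell CPM, 7 after thinning and 9 relative to the median. It was 2 with the mural-marked sub-cluster counted, without the Apod-led sub-cluster, without erythroid-marker cells, with sub-clusters weighted alike and with no filter beyond 1 UMI in each library. The count lower, 12 as reported, was 19 without cycling sub-clusters, with low-mitochondrial barcodes counted and without the Apod-led sub-cluster, 6 by mean per-cell CPM, and 3 after thinning, relative to the median and at 2-fold. The share of all genes under each setting is not given beside these counts. The median log2 ratio of all genes moved as well, from -0.21 to -0.06 by mean per-cell CPM and to -0.09 after thinning. Nothing about the pathway is therefore read from the changes in these counts. Thinned to 2000 UMIs, a Rasgrp2 UMI was found in 22.4% of endothelial cells in Alk1 ECKO and in 4.98% in control, against 39.4% in Alk1 ECKO and 11.1% in control at 5000. The highest over the lowest sub-cluster level was 3.39 at resolution 0.6 and 3.23 at 1.0. Depth limits the barrier capillary-like value of Alk1 ECKO, which rests on 30 UMIs, and all control sub-clusters of under 20 cells.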
